A study of Rattus norvegicus with 48 samples.

Results

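The hearts described here came from male Sprague Dawley rats that received no drug. They were collected either on day 11, after 10 daily saline injections, or after 30 further days without injection, a time point called abstinence in the labels. They make up 10 of the 47 libraries of the series, 5 rats at each time. They were chosen by the library titles alone: every male saline library except the 2 that carry replicate number 5. The rats are listed as 8 weeks old, and saline was the only treatment, given subcutaneously in the morning for 10 days. Hearts were taken 24 h after the last injection in the day 11 rats and 30 days after it in the abstinence rats, again in the morning, and the RNA was that of the left ventricle. The comparison therefore sets young adult hearts against hearts that are 30 days older, with no drug in either group.

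Time was not the only difference between the groups. The day 11 libraries were sequenced in one pool and the abstinence libraries in the other. The rats also came from separate number series, all day 11 rats with a number below 4000 and all abstinence rats with one above it. Age, sequencing pool and rat series cannot be told apart within the male saline hearts.

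The 10 libraries held between 7280679 and 10373555 counts assigned to genes. Total count, number of genes detected and share of counts in the 50 highest genes were compared between the times by an exact two-sided permutation test (adjusted p = 0.302 for each, where the smallest p that 5 against 5 allows is 0.00794). Without replicate 3 of day 11 the adjusted p of the same exact test was 0.0794 for each. One library stood apart. Replicate 3 of day 11 lay at 22.5 on the first principal component of the 500 most variable genes, against -0.891 to 3.38 for the other day 11 libraries, and its mean correlation with its own group was 0.973 against 0.984 to 0.987. Without it the biological coefficient of variation (the spread between rats beyond counting error) within the day 11 group was 9.51%, against 15.1% with it and 9.36% in the abstinence group. The summed level of 4 genes expressed in male but not in female hearts lay between 73.3% and 114% of the male median in these 10 libraries. It was 8.2% and 9.37% in the 2 libraries with replicate number 5, and at most 2.4% in the libraries from females. The 4 genes were picked by their median counts in the male and female libraries without replicate number 5. The ranges in those libraries are therefore no independent check of sex, while the 2 left-out libraries had no part in the choice.

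Of 32883 genes counted, 13717 passed the filter on low counts, and 202 of them (1.47%) changed between day 11 and abstinence at an adjusted p under 0.1 (edgeR quasi-likelihood test, Benjamini-Hochberg adjustment over all genes tested). There were 92 genes (0.671%) that rose and 110 (0.802%) that fell. Most changes were small. The median change among called genes was 0.55 on the log2 scale in absolute size, and 112 of the 202 (55.4%) changed by less than 1.5-fold. Only 10 genes rose and 14 fell by at least 2-fold. The median over all genes tested was -0.01. The values of the 2 groups did not overlap for 529 genes (3.86%), of which 178 were called. Calls were spread over the range of expression, with 39, 54, 52 and 57 called genes from the lowest to the highest of 4 equal classes of genes by level.

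The count of 202 depended on single libraries. It was 344 without replicate 3 of day 11. It was 113, 114 and 116 without replicates 2, 4 and 6 of day 11, and 71, 78, 72 and 56 without replicates 1, 2, 4 and 6 of abstinence. With both libraries of replicate number 5 put back it was 12, and these are the 2 libraries whose male-specific genes stood at 8.2% and 9.37% of the male level, so whether they hold male saline hearts is in doubt.

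**Figure D1:**
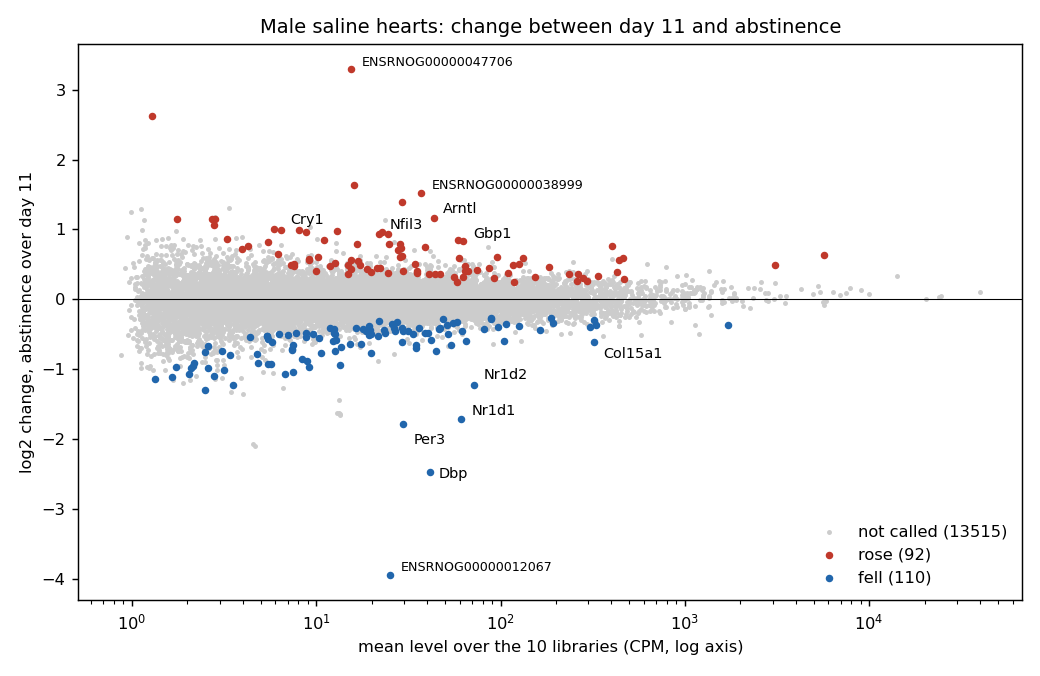
Each point is 1 of the 13717 genes tested in the 10 male saline libraries. The horizontal axis gives the mean level in CPM (counts per 1000000) on a log axis and the vertical axis the log2 change from day 11 to abstinence. The 92 genes that rose are red, the 110 that fell blue and the rest grey. Dbp, Per3, Nr1d1 and Nr1d2 are labelled among the genes that fell, with Dbp at -2.48 and ENSRNOG00000012067 lower, at -3.95.

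Gene names were at hand for 328 of the genes tested, all from the study's tables of genes affected by methamphetamine. Some of those tables rest on the same male saline libraries, so the share of named genes that were called (35 of 328, 10.7%, against 1.25% of the 13389 genes without a name) is not independent of how the names were chosen. The share called was 6.88% for names from the list of females at day 11 and 26.1% for those from the list of males at day 11. It was 4 of 6 (66.7%) for names from the table after abstinence. Among the named genes 17 rose and 18 fell. The list of females at day 11 gave 276 of the names and rests in part on the female saline day 11 libraries. The changes of named genes in female saline hearts, given below, are therefore also not independent of how the names were chosen. The description below is limited to genes among these names and to 4 genes given by their identifier.

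The named genes included members of the circadian clock. In most tissues a pair of activators, ARNTL (also called BMAL1) with CLOCK or NPAS2, drives transcription of the Per and Cry repressors, of the nuclear receptors Nr1d1 and Nr1d2 (REV-ERB alpha and beta) and of output factors such as Dbp and Tef, and these products in turn shut the activators down over the course of a day. The nuclear receptors act on Arntl through elements they share with the activating ROR receptors, and Dbp and Nfil3 compete for a further element, the D-box. In the heart the clock paces metabolism, ion channels and contractile function across the day.

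The starts of the clock genes are shown so that the letters of elements bound by clock factors, by textbook knowledge, can be read in them. Whether such elements have a part in the direction of change was not tested. Promoters from RefSeq (build GRCr8) were taken for 11 of the 12 clock genes with a name here, and Cry1 was not among those searched. Each sequence below is the 250 bases before an annotated start, written 5′ to 3′ on the strand of the gene, and capitals mark the motifs searched on both strands.
Arntl (Bmal1) (chr1:176766078-176766327, plus strand): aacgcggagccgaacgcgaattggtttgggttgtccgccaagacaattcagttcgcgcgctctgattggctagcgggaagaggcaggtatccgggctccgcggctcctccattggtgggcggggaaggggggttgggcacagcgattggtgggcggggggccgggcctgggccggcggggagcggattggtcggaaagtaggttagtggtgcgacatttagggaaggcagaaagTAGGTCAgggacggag
Nr1d1, first start (chr10:84231813-84232062, minus strand): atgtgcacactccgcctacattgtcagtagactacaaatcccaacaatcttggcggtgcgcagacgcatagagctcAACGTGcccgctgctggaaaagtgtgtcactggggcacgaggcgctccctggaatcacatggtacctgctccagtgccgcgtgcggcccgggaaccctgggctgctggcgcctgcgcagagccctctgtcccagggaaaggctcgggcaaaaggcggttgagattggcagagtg
Nr1d1, second start (chr10:84229455-84229704, minus strand): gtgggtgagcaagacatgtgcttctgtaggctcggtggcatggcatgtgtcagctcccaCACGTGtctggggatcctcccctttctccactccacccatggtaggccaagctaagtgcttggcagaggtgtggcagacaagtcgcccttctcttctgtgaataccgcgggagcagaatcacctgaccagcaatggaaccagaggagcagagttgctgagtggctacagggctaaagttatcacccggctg
Dbp (chr1:105312006-105312255, plus strand): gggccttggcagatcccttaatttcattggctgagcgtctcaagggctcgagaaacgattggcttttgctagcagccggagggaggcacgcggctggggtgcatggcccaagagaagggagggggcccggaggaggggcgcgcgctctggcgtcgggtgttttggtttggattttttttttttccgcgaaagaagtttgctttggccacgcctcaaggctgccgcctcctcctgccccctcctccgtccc
The letters searched were CACGTG (E-box, in 5.59% of the 33469 promoters of the same length), CACGTT (an E-box variant, 4.07%), TTATGTAA and TTATGCAA (D-box, 0.828% and 0.789%) and TAGGTCA and TGGGTCA (the core bound by ROR and REV-ERB receptors, 2.26% and 3.44%). Arntl holds TAGGTCA 16 bases before its start. Nr1d1 holds CACGTT, read on the other strand, 174 bases before its first start and CACGTG 191 bases before its second. Dbp holds none of these letters in this window. Among the promoters not shown, Per2 holds CACGTT 62 bases and TTATGTAA 192 bases before its start, Tef holds CACGTG at 198 bases and Cry2 holds CACGTT on the other strand at 212 bases. No match was found in the windows of Npas2, Clock, Nfil3, Per3 and Nr1d2. A match describes the letters only.

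The clock list held 22 genes, of which 12 had a name here. Of these 12 genes 4 fell, 3 rose and 5 did not pass the test, beside 1.47% of all genes and 10.7% of the named genes called. Their median log2 change was 0.05 against -0.01 for all genes, since the 2 directions balanced. Nr1d1, Cry1 and Nfil3 have names through the study's table after abstinence. For males that table rests in part on the male saline abstinence libraries, so these calls are not independent of how the names were chosen. The 4 that fell, Dbp, Per3, Nr1d1 and Nr1d2, are known targets of the activators, as is Cry1, which rose together with Arntl and Nfil3.

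Dbp, a transcription factor of the clock output, fell most. Its levels in replicates 1, 2, 3, 4 and 6 were 34.1, 43.4, 72.9, 63.7 and 135 CPM at day 11, and 12.1, 16.6, 12.9, 11.3 and 10.5 CPM after abstinence. The groups did not overlap, and the day 11 rats differed among themselves far more than the abstinence rats did. Dbp was 5.56-fold higher at day 11 than after abstinence (log2 change -2.48, SE 0.33, adjusted p = 0.00513).

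Per3, a member of the period family, showed the same picture. The day 11 levels were 33.3, 32.5, 41.3, 47.1 and 74.3 CPM and the abstinence levels 12.4, 15.5, 13.2, 14.3 and 11.3 CPM. Replicate 6 of day 11 was the highest library for both Per3 and Dbp, and no abstinence library reached the lowest day 11 library. The log2 change of Per3 was -1.79 (SE 0.21, adjusted p = 0.00225).

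The 2 REV-ERB receptors, which repress Arntl, fell as well. Nr1d1 stood at 72.2, 71.6, 89.7, 97.0 and 135 CPM at day 11 and at 32.4, 35.9, 22.7, 26.5 and 25.3 CPM after abstinence, a log2 change of -1.71 (SE 0.18, adjusted p = 0.000605). Nr1d2 stood at 80.7, 93.9, 97.4, 108 and 125 CPM at day 11 and at 46.9, 51.4, 43.1, 39 and 36 CPM after abstinence, a log2 change of -1.23 (SE 0.12, adjusted p = 0.000605). For both genes every day 11 library lay above every abstinence library, and replicate 6 was again the highest at day 11.

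Arntl moved the other way. Its day 11 levels were 39.5, 36.4, 19.1, 26.6 and 13.5 CPM and its abstinence levels 59.7, 58.6, 59.7, 53.9 and 69.2 CPM. The day 11 library with the most Dbp, replicate 6, held the least Arntl, and the one with the most Arntl, replicate 1, held the least Dbp. Arntl was 2.23-fold higher after abstinence (log2 change 1.16, SE 0.22, adjusted p = 0.0339).

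Cry1, a repressor of the activators, stood at 10.2, 10.9, 6.96, 9.2 and 6.61 CPM at day 11 and at 16.3, 16.8, 13.6, 17.1 and 22.4 CPM after abstinence (log2 change 0.97, SE 0.16, adjusted p = 0.0159). Nfil3, a repressor that acts at D-boxes, stood at 20.3, 18.7, 14.3, 10.4 and 11.7 CPM at day 11 and at 28.4, 26.6, 30.1, 28.0 and 30.6 CPM after abstinence (log2 change 0.93, SE 0.16, adjusted p = 0.0176). Both were higher in every abstinence library than in any day 11 library.

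The other clock genes with a name here did not pass the test. Per2 had a log2 change of -0.78 (SE 0.21, adjusted p = 0.125) and Npas2 one of 0.53 (SE 0.18, adjusted p = 0.231). Their groups overlapped, as did those of Cry2 (0.34, SE 0.10, adjusted p = 0.166), Clock (0.27, SE 0.12, adjusted p = 0.348) and Tef (-0.18, SE 0.10, adjusted p = 0.461). Without replicate 3 of day 11 the same number of clock genes was called, 3 up and 4 down. With both libraries of replicate number 5 put back only 3 clock genes were called, 2 up and 1 down.

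**Figure D2:**
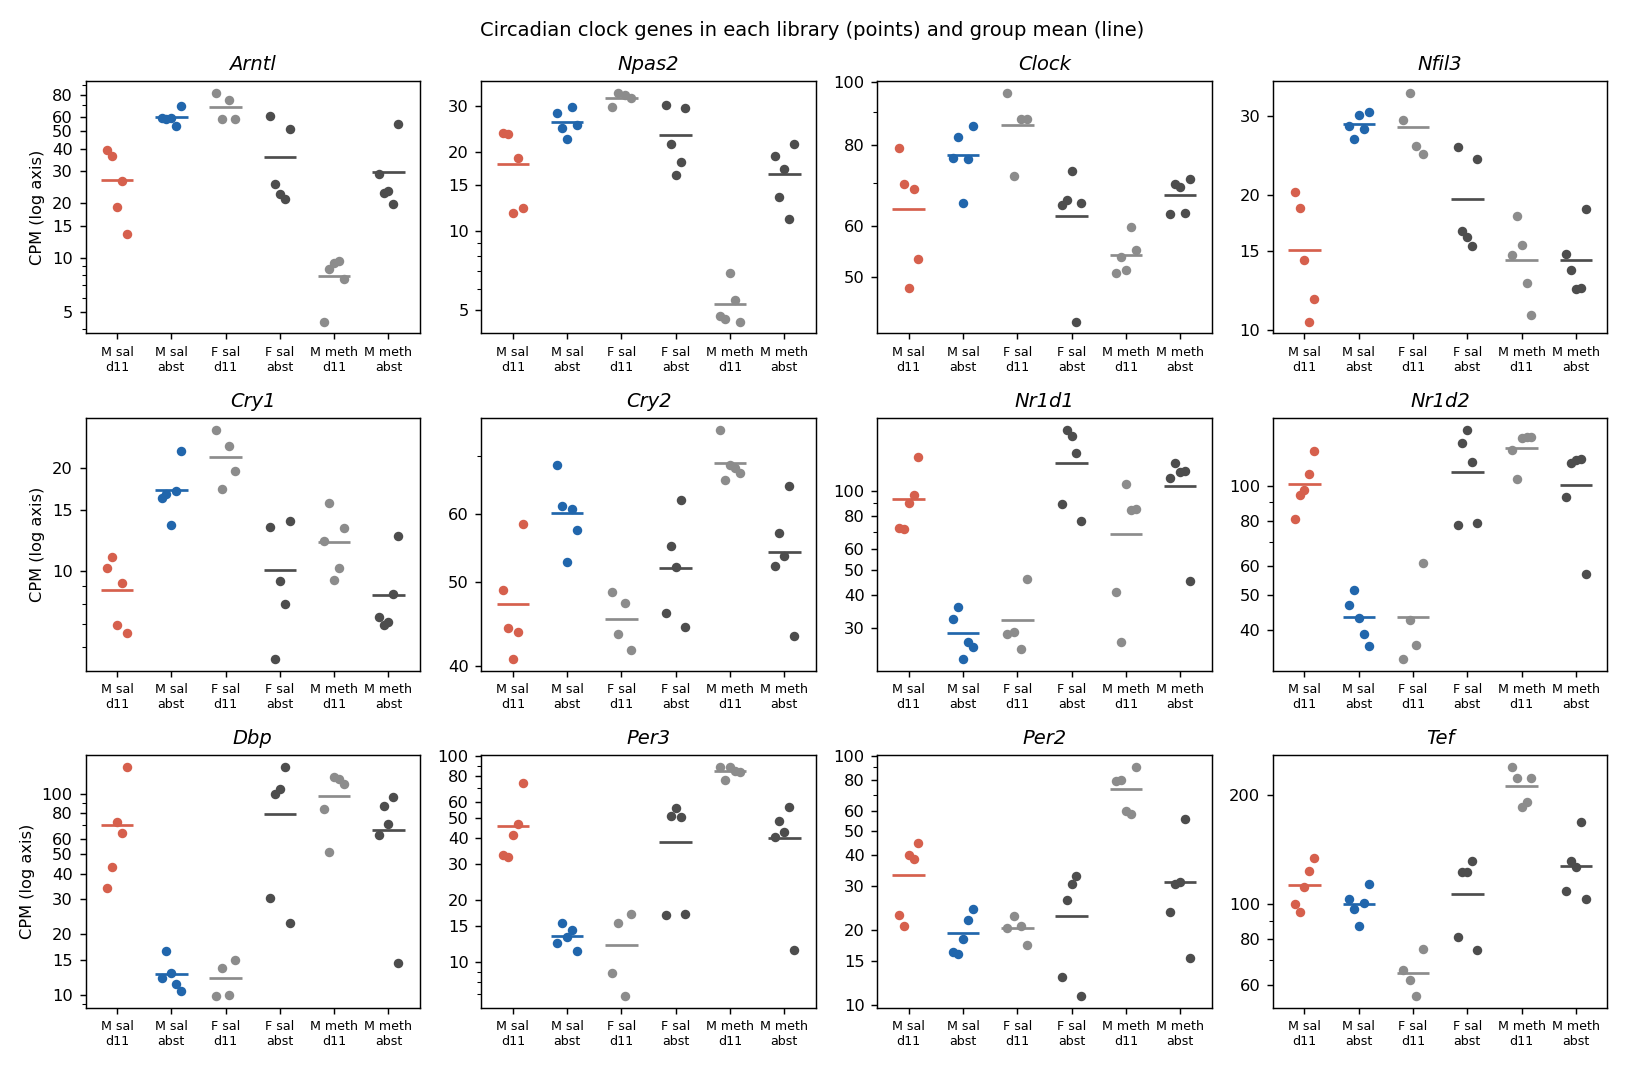
Levels of the 12 clock genes in CPM (log axis), 1 point a library, with a line at the mean of the group. M and F stand for male and female, sal for saline, meth for methamphetamine, d11 for day 11 and abst for abstinence, all without replicate number 5. In male saline hearts (red and blue) Dbp, Per3, Nr1d1 and Nr1d2 are lower and Arntl, Cry1 and Nfil3 higher after abstinence, with no overlap, and in female saline abstinence 2 libraries lie apart from the other 3.

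The change of the clock genes was set against the same interval in other hearts. Female saline hearts (4 at day 11, 5 after abstinence) and male methamphetamine hearts (5 and 5, drug given for the same 10 days) shared no library with the male saline hearts but were sequenced in the same 2 pools. The clock genes called in both male and female saline hearts moved in opposite directions. Dbp rose there by 2.72 on the log2 scale (SE 0.47, adjusted p = 0.0215), Nr1d1 by 2.00 (SE 0.25, adjusted p = 0.00419), Per3 by 1.69 (SE 0.40, adjusted p = 0.0644) and Nr1d2 by 1.35 (SE 0.21, adjusted p = 0.0141), while Cry1 fell by 1.10 (SE 0.22, adjusted p = 0.0346). The change of Arntl was -0.92 (SE 0.28, adjusted p = 0.156) and that of Nfil3 -0.54 (SE 0.16, adjusted p = 0.159).

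The difference between females and males was itself tested, over 14133 genes, of which 145 (1.03%) were called. All female saline day 11 rats had a number above 4000 and all male saline day 11 rats one below it. Sex and rat series at day 11 therefore cannot be told apart in this test. Of the 12 clock genes 10 were among them, against 12.8% of the named genes. The difference (female minus male) was 5.19 for Dbp (SE 0.64, adjusted p = 0.000189), 3.72 for Nr1d1 (SE 0.34, adjusted p = 6.94e-06), 3.48 for Per3 (SE 0.49, adjusted p = 0.000849) and 2.57 for Nr1d2 (SE 0.27, adjusted p = 2.85e-05). It was -2.08 for Arntl (SE 0.39, adjusted p = 0.0197), -2.07 for Cry1 (SE 0.29, adjusted p = 0.000849) and -1.47 for Nfil3 (SE 0.24, adjusted p = 0.00676). Nr1d1 and Nr1d2 had the 2 smallest p-values of all genes in this test.

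The female abstinence rats did not form one level. Replicates 1 and 6 had Arntl at 60.5 and 51.5 CPM and Dbp at 30.4 and 22.8 CPM, whereas replicates 2, 3 and 4 had Arntl at 25.6, 22.5 and 21.2 CPM and Dbp at 99.8, 106 and 136 CPM. Among the male methamphetamine rats after abstinence replicate 6 alone stood so, with Arntl at 55.0 CPM and Dbp at 14.5 CPM, against 19.9 to 28.9 CPM of Arntl and 62.2 to 96.6 CPM of Dbp in the other 4. Among the male saline abstinence rats all 5 had high Arntl and low Dbp. The hour at which each heart was taken within the morning was not analysed here, and its part in these levels was not tested.

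In male methamphetamine hearts 6 of the 12 clock genes were called, where 0.993% of all genes and 11.9% of the named genes were. Arntl and Per3 changed in the same direction as in male saline hearts. Mean levels went from 73.7 to 31.3 CPM for Per2 and from 213 to 128 CPM for Tef. Cry1, which rose in male saline hearts, went from 12.2 to 8.52 CPM. Arntl rose by 1.92 (SE 0.27, adjusted p = 0.00367) and Npas2 by 1.66 (SE 0.18, adjusted p = 0.000757), Per3 fell by 1.08 (SE 0.25, adjusted p = 0.0722), and the change of Dbp was -0.56 (SE 0.34, adjusted p = 0.557) and that of Nr1d1 0.61 (SE 0.32, adjusted p = 0.491). The difference between drug and saline in the change over time was called for 87 of 14081 genes (0.618%) and for 6 of the 12 clock genes, against 10.1% of the named genes. All male methamphetamine day 11 rats had a number above 4000, so drug and rat series at day 11 cannot be told apart in this test. Nr1d1, Cry1 and Nfil3 are among the 6 clock genes called for this difference, and their names come from the study's own test of drug against saline after abstinence in males. Nr1d1 differed by 2.32 (SE 0.42, adjusted p = 0.0278), Cry1 by -1.48 (SE 0.25, adjusted p = 0.0191), Cry2 by -0.68 (SE 0.14, adjusted p = 0.0361) and Npas2 by 1.13 (SE 0.28, adjusted p = 0.0982). The difference was not called for Dbp (1.92, adjusted p = 0.147), Per3 (0.72, adjusted p = 0.403) or Arntl (0.76, adjusted p = 0.382).

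**Figure D3:**
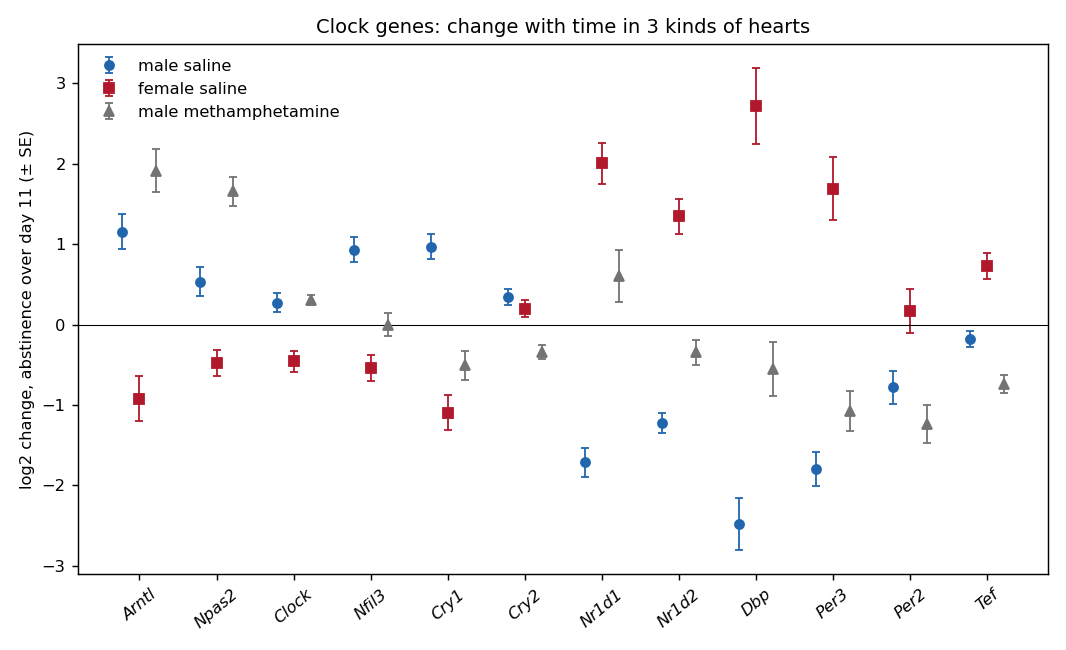
The log2 change from day 11 to abstinence of the 12 clock genes (points, with bars of 1 SE) in male saline hearts (blue circles), female saline hearts (red squares) and male methamphetamine hearts (grey triangles). Dbp lies at -2.48 in male and at 2.72 in female saline hearts.

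Outside the clock the called genes with a name changed by less than 2-fold. Col15a1, a basement membrane collagen with 2 gene entries in the table, fell. Its first entry (ENSRNOG00000060381) stood at 370, 363, 339, 406 and 472 CPM at day 11 and at 246, 260, 255, 279 and 241 CPM after abstinence (log2 change -0.61, SE 0.09, adjusted p = 0.00971). Every day 11 library lay above every abstinence library. The second entry (ENSRNOG00000039197) had a log2 change of -0.48 (SE 0.12, adjusted p = 0.108), and reads could have been split between them.

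Col15a1 belongs to the collagens and matrix, a list of 54 genes of which 14 had a name here. They make 15 entries, as both entries of Col15a1 were counted. Of these 2 fell, none rose and 13 did not pass the test, beside 1.47% of all genes and 10.7% of the named genes, so the share called was near that of the names they were drawn from. In all 14 of the 15 entries, with both of Col15a1 among them, had a negative log2 change, against 49.1% of the named genes and 52.7% of all genes. Their median was -0.27 against 0.00 for the named genes and -0.01 for all genes. The other gene called was Eln, which encodes elastin. It went from 140, 134, 123, 153 and 158 CPM to 109, 117, 102, 116 and 99.9 CPM (log2 change -0.39, SE 0.08, adjusted p = 0.0504), again without overlap. Col4a1, a chain of the main basement membrane collagen, had a log2 change of -0.32 (SE 0.10, adjusted p = 0.178), and Fbn1, which encodes the microfibril protein fibrillin, one of -0.33 (SE 0.13, adjusted p = 0.283).

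The number of matrix genes called moved with the libraries used, from 6 without replicate 3 of day 11 to 1 without replicate 4 or 6 of day 11 or without replicate 1, 4 or 6 of abstinence, and 0 with replicate number 5 put back. In bulk tissue fewer cells of a type and less RNA per cell cannot be told apart. Pdgfrb, a marker of pericytes, changed by 0.11 (SE 0.09, adjusted p = 0.595), and the leukocyte marker Ptprc by 0.04 (SE 0.12, adjusted p = 0.885). The atrial light chain Myl4 averaged 3.4 CPM at day 11 and 2.71 CPM after abstinence (log2 change -0.38, SE 0.29, adjusted p = 0.571). No cardiomyocyte, fibroblast or endothelial marker from the lists had a name in the table, so the tissue could not be checked against them.

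In female saline hearts the median change of the matrix genes was -0.55 and 10 of the 15 entries were called, where 2.39% of all genes and 14.6% of the named genes were. Most names came from a test of females at day 11 that used these female saline day 11 libraries. These female values, and those of Eln and Fibin below, are therefore not independent of how the names were chosen. In male methamphetamine hearts the median was 0.09 and 2 were called, where 0.993% of all genes and 11.9% of the named genes were. Eln fell by 1.33 in the female hearts (SE 0.08, adjusted p = 1.26e-05), and this differed from the change in male saline hearts by -0.94 (SE 0.11, adjusted p = 0.000189). For Col15a1 the difference between the sexes was 0.13 (adjusted p = 0.637). In these differences too, sex and rat series at day 11 cannot be told apart. Fibin, whose symbol stands for fin bud initiation factor, had the third smallest p of all differences between the sexes. It changed by 0.28 in male saline hearts (SE 0.10, adjusted p = 0.238) and fell by 1.05 in the female hearts (SE 0.13, adjusted p = 0.00242), a difference of -1.33 (SE 0.15, adjusted p = 0.000117). The atrial gene Myl4 fell by 3.49 in the female saline hearts as well (SE 0.68, adjusted p = 0.0310), and its part in the differences between the sexes was not tested.

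The other groups below were put together from the named genes, and their counts are to be read against the 10.7% of named genes called and the 49.1% with a negative log2 change. Among 22 further genes of matrix assembly and processing Islr, a secreted protein of stromal cells, was the one called (log2 change -0.41, SE 0.10, adjusted p = 0.0821), and 15 of the 22 had a negative log2 change (median -0.10). Islr at 37.7 CPM in replicate 6 of day 11 lay apart from 27.1 to 29.5 CPM in the rest of that group. Of 11 endothelial genes none was called, and the smallest p was that of Cx3cl1, a chemokine held on the cell surface, with a log2 change of 0.30 (SE 0.08, adjusted p = 0.103).

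A set of 23 cytoskeletal and small GTPase genes had 4 that fell and none that rose (1.47% of all genes and 10.7% of the named genes were called), with a median log2 change of -0.20. Nes, which encodes the intermediate filament protein nestin, went from a mean of 78.5 ± 18 CPM to 52.3 ± 7.81 CPM (SD, n = 5 each). Its groups overlapped (log2 change -0.60, SE 0.15, adjusted p = 0.0957). Cdc42ep2, an effector of the GTPase CDC42, went from 42.5 ± 8.89 to 27.0 ± 4.54 CPM (log2 change -0.66, SE 0.15, adjusted p = 0.0667), Marcksl1 from 45.5 ± 4.97 to 32.6 ± 4.19 CPM (-0.48, SE 0.10, adjusted p = 0.056) and the tubulin Tubb6 from 23.2 ± 2.47 to 16.5 ± 2.12 CPM (-0.49, SE 0.11, adjusted p = 0.056). In male methamphetamine hearts 4 of the 23 differed from male saline hearts in their change over time, where 0.618% of all genes and 10.1% of the named genes did, Nes by 0.95 (SE 0.19, adjusted p = 0.0361) and Marcksl1 by 0.69 (SE 0.14, adjusted p = 0.0361) among them.

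Other genes fell singly. Fxyd6, a regulator of the sodium pump, went from 50.2 ± 3.14 to 33.7 ± 4.12 CPM (log2 change -0.58, SE 0.09, adjusted p = 0.0147), and the groups did not overlap. Prcp, a lysosomal carboxypeptidase that cleaves angiotensin peptides, went from 16.7 ± 2.54 to 10.4 ± 1.01 CPM (-0.68, SE 0.12, adjusted p = 0.0255). Kdelr3, a receptor that returns proteins to the endoplasmic reticulum, had a log2 change of -0.52 (SE 0.11, adjusted p = 0.0516) and was the 1 of 6 secretory pathway genes called. Alyref, an mRNA export adaptor, had one of -0.36 (SE 0.07, adjusted p = 0.0441) and was the 1 of 6 genes of RNA splicing and export called. The kinase Pim3 (-0.41, SE 0.08, adjusted p = 0.0339), the phosphatase Cdc25b, which promotes entry into mitosis (-0.42, SE 0.09, adjusted p = 0.0516), and Cmtm3 (-0.45, SE 0.10, adjusted p = 0.0558) completed the fall.

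Lrrc2, a leucine-rich repeat protein of heart and skeletal muscle, rose from 106 ± 11.0 to 160 ± 19.7 CPM (log2 change 0.59, SE 0.09, adjusted p = 0.015) without overlap. It was the 1 of 11 striated muscle genes called, a share near the 10.7% of the named genes, and 10 of the 11 had a positive log2 change (median 0.16). Clip1, a protein that binds the ends of microtubules, rose from 105 ± 10.7 to 149 ± 12.4 CPM (0.50, SE 0.08, adjusted p = 0.0159), and in male methamphetamine hearts its change was lower by a log2 difference of -0.66 (SE 0.10, adjusted p = 0.0159), the second smallest p of that test. Kcnk3, which encodes the background potassium channel TASK-1, rose from 137 ± 11.4 to 172 ± 6.87 CPM (0.32, SE 0.07, adjusted p = 0.0527). The gap junction gene Gja1, the other ion channel gene with a name, had a log2 change of 0.26 (SE 0.11, adjusted p = 0.343).

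Gbp1, a GTPase induced by interferon, rose from 44.7 ± 13.9 to 79.9 ± 14.3 CPM (log2 change 0.83, SE 0.18, adjusted p = 0.0593), with overlap. Gcat, a mitochondrial enzyme of threonine breakdown, rose by 0.38 (SE 0.08, adjusted p = 0.0435) and was the 1 of 11 genes of amino acid, polyamine and methyl donor metabolism called. Slc41a3, a magnesium transporter, rose by 0.49 (SE 0.11, adjusted p = 0.0593). It also rose in male methamphetamine hearts, by 1.01 (SE 0.13, adjusted p = 0.00301). Medag, a gene linked to fat cell formation, rose by 0.37 (SE 0.08, adjusted p = 0.0637) and fell by 0.78 in female saline hearts (SE 0.15, adjusted p = 0.0286). Ivns1abp, Elmod3, Ehbp1, Armc2, LOC100911356 and LOC103694908 rose by 0.33 to 0.57 (adjusted p from 0.0482 to 0.0967).

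The lists of substrate use, stress response and cell cycle genes held few members with a name. The smallest p among 5 genes of glucose use was that of Txnip, an inhibitor of glucose uptake, with a log2 change of -0.52 (SE 0.13, adjusted p = 0.103). Among 3 genes of fatty acid use it was that of the lipid droplet gene Plin4 (0.51, SE 0.16, adjusted p = 0.203). Among 4 genes of the glucocorticoid response it was that of the cell cycle inhibitor Cdkn1a (0.47, SE 0.12, adjusted p = 0.116), and among 3 immediate early genes that of Klf10 (-0.34, SE 0.16, adjusted p = 0.366). Hmgb2 and Lmod2, the single named members of the cell cycle and sarcomere lists, had log2 changes of -0.28 and 0.11 and were not called. For respiratory chain, ribosomal protein and growth factor genes no name was at hand. The median log2 change of 9 genes of FoxO signalling, energy stress and growth arrest was 0.07, and Cdkn1a had the smallest p there too. Among 6 genes of TGF-beta and BMP signalling the median was 0.10 and the smallest p that of Smad3, which carries the TGF-beta signal to the nucleus (0.31, SE 0.11, adjusted p = 0.235).

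**Figure D4:**
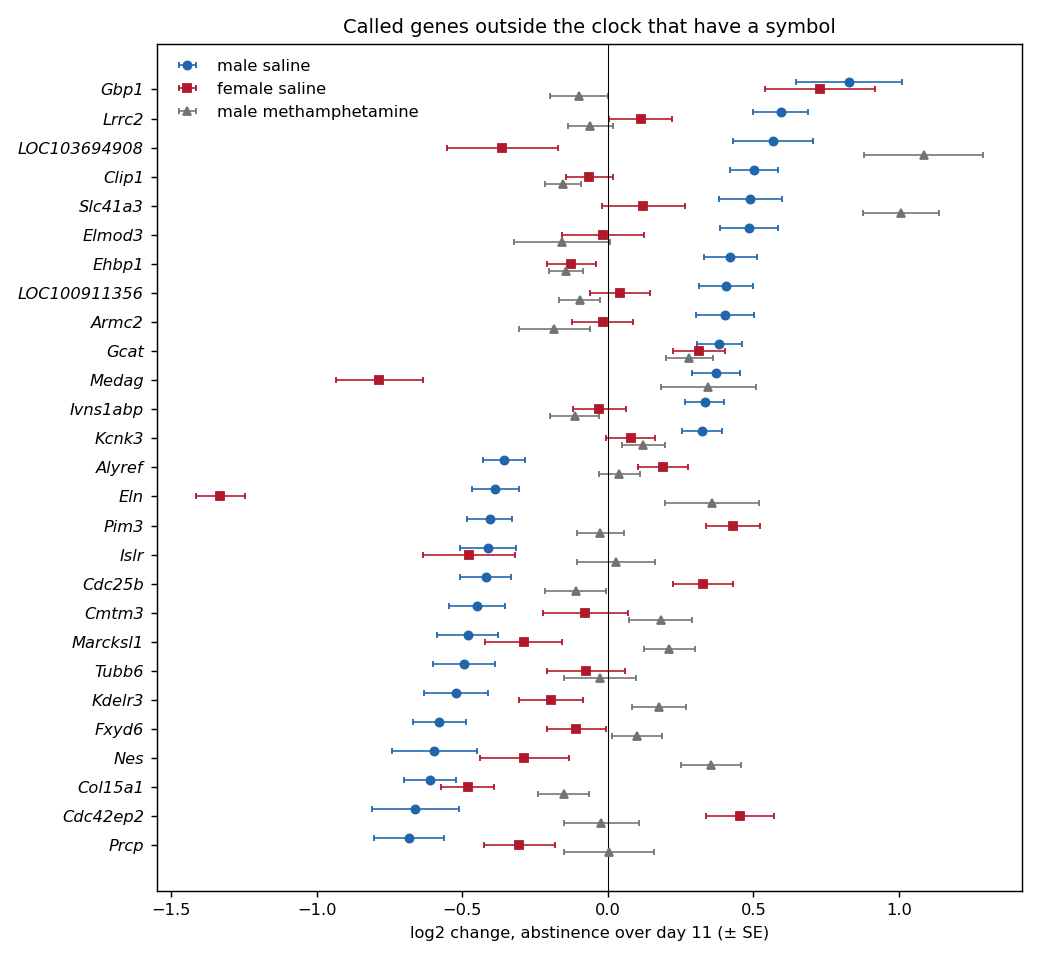
Plotted are 27 called genes with a name outside the clock, each with its log2 change from day 11 to abstinence in male saline hearts (blue circles), female saline hearts (red squares) and male methamphetamine hearts (grey triangles), with bars of 1 SE. The female saline change differs from the male by -1.16 for Medag, 1.11 for Cdc42ep2 and -0.94 for Eln.

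The largest change in either direction and the smallest p fell on genes without a name. ENSRNOG00000047706 stood at 3.05, 2.78, 1.95, 3.25 and 3.03 CPM at day 11 and at 26.2, 22.8, 30.4, 29.6 and 31.4 CPM after abstinence. It was 9.79-fold higher after abstinence (log2 change 3.29, SE 0.14, adjusted p = 2.74e-08, the smallest of all genes). ENSRNOG00000038999 stood at 14.6, 17.6, 21.2, 22.9 and 19.2 CPM and at 55.3, 48.4, 52.2, 63.4 and 54.9 CPM (log2 change 1.52, SE 0.11, adjusted p = 2.87e-05). For both genes the 2 groups were far apart and each was tight.

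In female saline hearts both genes rose as well, ENSRNOG00000047706 by 2.71 (SE 0.56, adjusted p = 0.0414) and ENSRNOG00000038999 by 1.30 (SE 0.28, adjusted p = 0.0450). In male methamphetamine hearts their changes were 1.41 (SE 0.66, adjusted p = 0.428) and 0.71 (SE 0.27, adjusted p = 0.299). The abstinence libraries of each other group held both low and high levels. Over the 39 libraries without replicate number 5, ENSRNOG00000047706 took 26 values up to 5.55 CPM and 13 values from 18 CPM, with none between. The 13 higher libraries were the 5 of male saline abstinence, 3 of 5 from female saline abstinence, 3 of 5 from male methamphetamine abstinence, 1 of 5 from female methamphetamine abstinence and 1 of 5 from male methamphetamine day 11. ENSRNOG00000038999 was higher in the same 13 libraries, from 41.0 CPM, and at most 25.0 CPM in the other 26. None of the 8 rats with a number below 4000, which include all 5 male saline day 11 rats and 3 abstinence rats of other groups, was among the 13. Rat series and time cannot be told apart in the male saline hearts for these genes, and the litter of each rat was not analysed here.

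ENSRNOG00000012067 fell most, but by an uneven change. Its day 11 levels were 102, 16.3, 102, 10.7 and 5.32 CPM and its abstinence levels 2.36, 3.23, 3.4, 4.09 and 2.1 CPM (log2 change -3.95, SE 0.82, adjusted p = 0.0504). Replicates 1 and 3 carried most of the day 11 mean. Over the 39 libraries it took 29 values up to 17.5 CPM and 10 from 69.0 CPM, the latter in 6 of the 8 groups. ENSRNOG00000013057 fell evenly, from 12.4, 12.3, 10.3, 12.0 and 13.1 CPM to 6.41, 6.09, 5.96, 6.5 and 5.89 CPM (log2 change -0.97, SE 0.10, adjusted p = 0.000605). Its change in female saline hearts was -0.89 (SE 0.21, adjusted p = 0.0745) and in male methamphetamine hearts -0.34 (SE 0.20, adjusted p = 0.551).

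**Figure D5:**
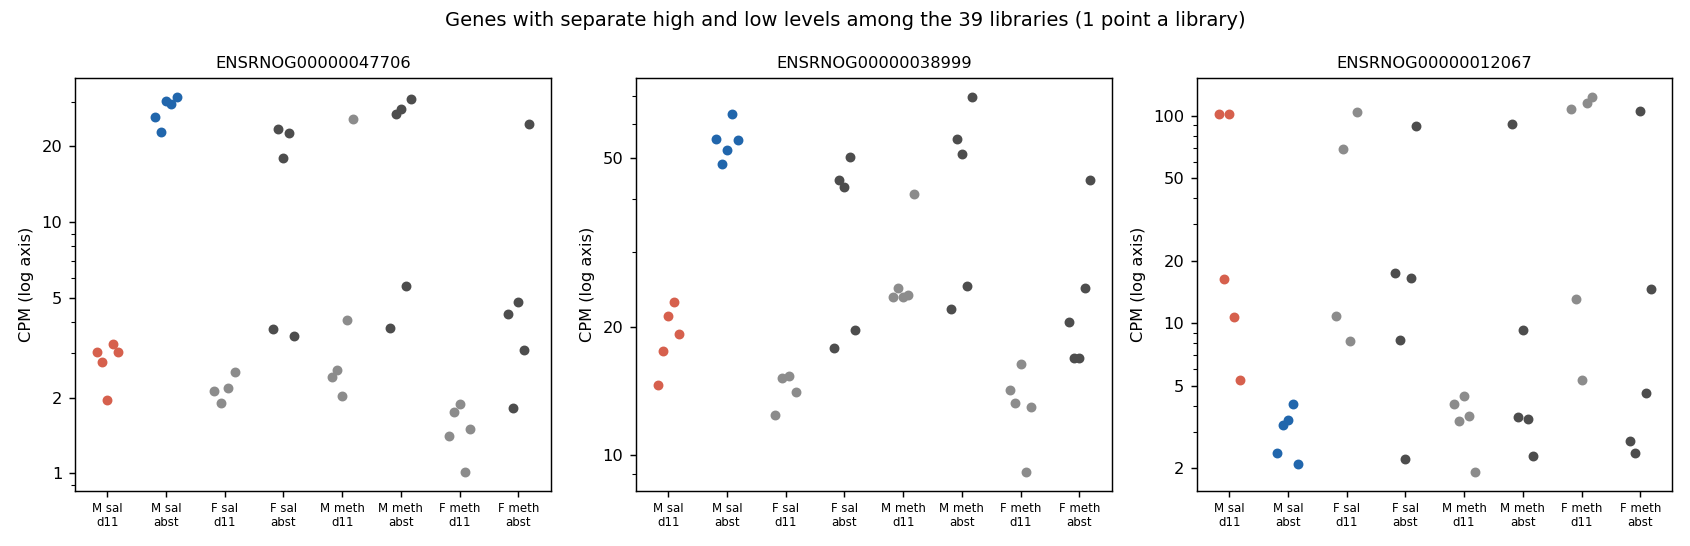
Levels of ENSRNOG00000047706, ENSRNOG00000038999 and ENSRNOG00000012067 in CPM (log axis) in the 39 libraries without replicate number 5, 1 point a library, by group, with male saline in red and blue. Each gene takes a high and a low level with a gap between, and in male saline hearts the first 2 genes are low in all 5 day 11 libraries and high in all 5 abstinence libraries.

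Changes across all genes were also set side by side. The log2 changes of the 13538 genes tested in both had a Pearson r of 0.01 and a Spearman rho of -0.07 with those in female saline hearts, and of 0.01 and -0.03 over 13554 genes with those in male methamphetamine hearts. These are correlations across genes, which are not independent replicates. Among the genes called in male saline hearts the direction was the same for 139 of 199 in female saline hearts (69.8%), for 129 of 201 in male methamphetamine hearts (64.2%) and for 92 in both. The share with the same direction over all genes tested was not computed. In female saline hearts 327 genes were called (2.39%), of which 38 were also called in male saline hearts, 18.8% of the male list and 11.6% of the female list. The direction was the same for 29 of the 38 and opposite for 9, among them Dbp, Nr1d1, Nr1d2, Per3, Cry1, Pim3, Cdc42ep2 and Medag. In male methamphetamine hearts 136 genes were called (0.993%) and 13 were shared, 6.44% of the male saline list and 9.56% of the other, with 11 in the same direction, including Arntl, Per3 and Slc41a3. Called in all 3 comparisons were 5 genes, 4 of them in 1 direction throughout, and the fifth was Per3. As all 3 comparisons set the same pool against the other, a difference between the pools would enter each of them.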

How the data were processed

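RNA of the left ventricle was sequenced from rat hearts as polyadenylated RNA. Per the labels and the study's methods, reads passed through Trimmomatic 0.38 and then HISAT2 2.1.0 (build Rnor_6.0), and the authors deposited raw counts per gene, with no normalization. The authors also deposited normalized values, a signal equal to the raw counts divided by 1 size factor per library (DESeq2 1.20.0). No column without a sample was found.

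From the counts, edgeR 4.0.16 (R 4.3.3) fitted the 10 male saline libraries with TMM factors, the default filter on low counts and the quasi-likelihood test. Adjusted p is that of Benjamini-Hochberg over all genes tested, with 0.1 as the threshold, as in the study. Differences between comparisons were contrasts of 4 group means. SE is the absolute log2 change over the square root of F, and CPM are TMM-scaled counts per 1000000, with factors set over 39 libraries. limma 3.58.1 and DESeq2 1.42.0 gave alternatives. Each library came from 1 rat. Libraries of a group differed by more than sampling noise (chi-square per degree of freedom from 2.31 to 28.6 over 20 pairs).

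Named were the called genes with a symbol, by size and p, the called members of each gene list or its member with the smallest p, the smallest p-values of the differences, and at most 2 identifiers in each direction. The identifiers were taken as those named by both size and p, then by size, an order settled after their values were seen. The members and lists were chosen with earlier results of these data known, and 10 groups of genes were added once the available names were known. The values of 2 genes with a name are not reported here, though the fits and counts include them. Mitochondrial transcripts had no name here, so their share was not computed.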

Additional observations from a re-analysis of the deposited data

Results flagged for a closer look

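Replicate 3 of the day 11 group lay apart from its group in 2 measures, the first principal component (22.5) and the mean correlation with its group (0.973). In the abstinence group 1 library lay apart in the share of counts in the 50 highest genes (30.8%) and 1 in its TMM factor (0.968), in both cases replicate 3, the shallowest of its group. Islr in replicate 6 of day 11 (37.7 CPM) and Hmgb2 in replicate 3 of day 11 (34.1 CPM) were the gene values set apart in this way. These are 6 of 128 values tested, and chance alone gives about 1 in 20.

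The change over time differed between female and male saline hearts by an edgeR test of the difference for 22 of the 58 genes considered (female minus male, log2). Over all genes tested 145 of 14133 (1.03%) differed. Most of the 58 were taken because they were called in male saline hearts, and the clock genes were added. The male saline change is part of each difference, so these counts are not independent of that choice. The difference was positive for Dbp (5.19), Nr1d1 (3.72), Per3 (3.48), Nr1d2 (2.57), Txnip (1.17), Cdc42ep2 (1.11), Tef (0.90), Pim3 (0.83), Cdc25b (0.75) and Alyref (0.55). It was negative for Arntl (-2.08), Cry1 (-2.07), Nfil3 (-1.47), Fibin (-1.33), Cdkn1a (-1.19), Medag (-1.16), Npas2 (-1.01), Eln (-0.94), LOC103694908 (-0.93), Clock (-0.73), Clip1 (-0.57) and Ehbp1 (-0.55). The adjusted p was at most 0.0993.

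It differed between male methamphetamine and male saline hearts for 19 of the same 58 genes (drug minus saline, log2), where 0.618% of all genes tested did. The difference was positive for ENSRNOG00000012067 (6.59), Nr1d1 (2.32), Npas2 (1.13), Nes (0.95), Nr1d2 (0.88), Kdelr3 (0.70), Marcksl1 (0.69), Fxyd6 (0.68), Cmtm3 (0.63) and Alyref (0.40). It was negative for Cry1 (-1.48), Nfil3 (-0.93), Gbp1 (-0.93), Cry2 (-0.68), Clip1 (-0.66), Lrrc2 (-0.65), Ehbp1 (-0.56), LOC100911356 (-0.50) and Ivns1abp (-0.45). The adjusted p was at most 0.0997. At day 11 the rat series cannot be told apart from sex in the female and male difference, or from drug in the drug and saline difference. The part of the sequencing pool in these differences was not tested.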

How the results depend on the processing

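The 202 genes called over time in male saline hearts became 426 with DESeq2, 521 with limma voom and quality weights, 372 with all 39 libraries in the fit, 84 at an adjusted p under 0.05 and 12 with replicate 5 kept. The 145 genes that differed between female and male saline hearts became 248 with DESeq2, 866 with voom, 66 at 0.05 and 51 with replicate 5 kept. The 87 that differed between drug and saline became 269 with DESeq2, 214 with voom, 37 at 0.05 and 21 with replicate 5 kept. The cause of these moves was not tested. Other scalings and filters left each of the 3 counts within 1.5 times, as did the deposited normalized values for the count over time, the one count they were tried on. The 2 libraries of replicate 5 hold male-specific genes at 8.2% and 9.37% of the male level.

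Nothing in the labels ties same-numbered rats together. The replicate numbers name different rats and were not taken as pairs. Deviations of same-numbered libraries correlated at 0.07 to 0.49, and 3 of 5 day 11 libraries correlated best with their own number. Whether rats of the same number share a factor was not tested. With the replicate number as a block 1119 genes were called over time, 85 in the female and male difference and 88 in the drug and saline difference. Over time 11 of the 12 clock genes and 7 of the 15 matrix entries were called.

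Leaving out 1 library gave 56 to 344 genes over time. It gave 67 to 192 in the female and male difference, with 67 and 69 without female saline day 11 replicates 1 and 4, 86 without male saline day 11 replicate 2, and 95, 84 and 92 without male saline abstinence replicates 1, 4 and 6. It gave 32 to 108 in the drug and saline difference, with 44 without male saline day 11 replicate 2, 47, 52 and 32 without male saline abstinence replicates 1, 4 and 6, 36, 45 and 41 without male methamphetamine day 11 replicates 1, 2 and 4, and 42, 50 and 56 without male methamphetamine abstinence replicates 1, 2 and 4. For the library measures the adjusted p of the exact permutation test ran from 0.0794, without day 11 replicate 3, to 0.587.

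None of the 38 called genes described reversed under any alternative (874 values, of which 196 lost the call). The call held throughout for 6, Nr1d1, Cry1, Nfil3, Lrrc2, ENSRNOG00000047706 and ENSRNOG00000038999. With replicate 5 kept Dbp (-1.68, adjusted p = 0.453), Per3 (-0.78, adjusted p = 0.735), Nr1d2 (-0.90, adjusted p = 0.412) and Arntl (1.09, adjusted p = 0.453) were not called, and Arntl was also lost without abstinence replicate 6 (adjusted p = 0.115). ENSRNOG00000012067 lost its call in 8 of 23 alternatives. It did so without abstinence replicate 1, 2, 4 or 6 (adjusted p from 0.126 to 0.164) and at the threshold of 0.05. The call was also lost with limma voom and quality weights (adjusted p = 0.139). In edgeR it was lost with all 39 libraries in the fit (adjusted p = 0.106) and with replicate 5 kept (adjusted p = 0.294).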
